A study of Mus musculus with 18 samples.

Results

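The 10 imprinted growth control genes Igf2, H19, Igf2r, Mest, Peg3, Dlk1, Cdkn1c, Phlda2, Plagl1 and Grb10 were read on whole mouse embryos of embryonic day 9.5. All probe sets annotated with these symbols were taken, which gave 22 of the 45037 probe sets of the array, for 10 of the 18194 genes that had a value here. Of these, 20 carried 1 symbol and 2 carried several. Igf2, Mest, Peg3, Dlk1 and Plagl1 are expressed from the paternal allele in mouse, and H19, Igf2r, Cdkn1c, Phlda2 and Grb10 from the maternal allele, with Grb10 switching to the paternal allele in neurons. The array does not tell the alleles apart, so every value is the sum of both.

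The 18 embryos form an allelic series of Tbx1, a T-box transcription factor gene of the pharyngeal apparatus, in a mixed 129SvEv and C57Bl/6 background. The 8 mutant genotypes were Neo2/+, Neo/+ and +/-, with 1 wild-type allele, and -/-, Neo/Neo, Neo2/-, Neo2/Neo and Neo2/Neo2, with none. WT embryos hold 2. The minus sign stands for a null allele, the 3 mutant alleles came from earlier reports, and each genotype had 2 embryos on 1 array each. The p-values of the comparisons with WT, the F-test and the sex test therefore measure the spread between pairs of embryos, which is all the replication there is. The test by number of wild-type alleles and the regression on the Tbx1 signal also count differences between genotypes as spread. The permutation p-values of correlations treat all arrays as independent, although 2 embryos share each genotype. Tbx1 itself had 6.62 and 6.62 log2 units in Neo2/Neo2, 5.65 and 5.67 in Neo2/Neo, 5.04 and 5.20 in Neo/Neo and 4.98 and 5.16 in -/- embryos, against 6.54 and 6.63 in WT embryos. The Neo2/Neo2 embryos lay within the reach of the WT embryos, and the other 3 genotypes lay below them.

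Imprinted genes are expressed from only 1 parental copy because of DNA methylation set in the germ line, and many of them act on growth before birth. Igf2 is a fetal growth factor, Igf2r removes it from the cell surface for breakdown, and Grb10 dampens signalling by the insulin and IGF receptors. Cdkn1c inhibits cyclin-dependent kinases, Phlda2 restrains growth of the placenta, and Plagl1 is a zinc finger transcription factor. H19 is a long noncoding RNA that shares an imprinting control region with Igf2, and Cdkn1c and Phlda2 belong to a neighbouring imprinted domain of the same chromosome.

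H19 was read by a single probe set that is annotated with both H19 and Mir675, a miRNA made from the H19 transcript, so the 2 cannot be told apart. Its mature sequences are shown for that reason, from RefSeq (GRCm38.p6), with the seed, bases 2 to 8, in capitals.
mmu-miR-675-5p: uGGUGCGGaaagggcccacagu
mmu-miR-675-3p: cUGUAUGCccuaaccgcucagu
Their seeds differ from each other. They lie at chr7:142577112-142577133 and chr7:142577078-142577099, both on the minus strand.

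The 250 bases before the annotated start are shown for Phlda2, Plagl1 and Igf2r, 3 genes whose signals varied with one another or with Cdkn1c. Capitals mark the TATA box letters TATAAA and the E box letters CACGTG, each searched on both strands together with the palindrome GGGGCCCC. The E box was added to the search after these sequences had been seen, so its count is a description only.
Phlda2: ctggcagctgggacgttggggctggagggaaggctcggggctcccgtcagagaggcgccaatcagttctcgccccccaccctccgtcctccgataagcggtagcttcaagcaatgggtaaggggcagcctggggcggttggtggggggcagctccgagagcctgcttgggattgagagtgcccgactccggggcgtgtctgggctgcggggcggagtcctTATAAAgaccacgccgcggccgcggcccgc
Plagl1: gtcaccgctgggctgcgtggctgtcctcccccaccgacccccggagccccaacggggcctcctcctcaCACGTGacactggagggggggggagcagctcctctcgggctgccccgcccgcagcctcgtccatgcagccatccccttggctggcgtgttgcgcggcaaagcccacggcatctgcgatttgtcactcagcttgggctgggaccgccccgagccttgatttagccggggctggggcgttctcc
Igf2r: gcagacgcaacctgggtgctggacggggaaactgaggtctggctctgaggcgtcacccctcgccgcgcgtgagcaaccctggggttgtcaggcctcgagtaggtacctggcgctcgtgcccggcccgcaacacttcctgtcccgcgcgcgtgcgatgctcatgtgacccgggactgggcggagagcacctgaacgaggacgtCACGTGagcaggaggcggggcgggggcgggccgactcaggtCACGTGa
The stretches are chr7:143502525-143502774 on the minus strand, chr10:13090582-13090831 on the plus strand and chr17:12769707-12769956 on the minus strand of GRCm38.p6, from RefSeq. Phlda2 held 1 TATAAA, which 12.4% of 32841 promoters hold. Plagl1 held 1 CACGTG and Igf2r 2, which 6.02% of promoters hold, and none of these 3 held GGGGCCCC, which occurred in 0.889% of promoters and in 1 of the member promoters, that of Peg3. Starts of 8 of the 10 genes were in the table, 14 in all, and 12 of these 14 had more CpG pairs than the median promoter, with a median of 12 against 6. H19 and Cdkn1c were not matched.

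The first replicates of +/- and of -/- differed from the remaining 16 arrays, with median correlations of 0.975 and 0.985 over all probe sets. On the +/- array, 8 of the 10 genes were below all of the other 16 arrays, against 16% of all genes. On the -/- array this held for 7 of the 10 genes, against 18.4% of all genes. The median deviation of the 10 genes from the mean of those 16 arrays was -0.32 on the +/- array and -0.51 on the -/- array, while the median of all genes was 0.06 and 0.02. Cdkn1c had 8.10 and Dlk1 9.61 on the +/- array, with the lowest of the other 16 at 10.74 and 11.39. Igf2r had 8.59 and Dlk1 10.40 on the -/- array, with the lowest of the other 16 at 10.55 and 11.39. On the +/- array the exceptions were Phlda2 at 7.13 and Igf2r at 10.65, and on the -/- array Phlda2 at 5.98, H19 at 13.49 and Cdkn1c at 10.91. These counts use the brightest probe set of a gene, and the shares of all genes cover genes of every brightness. Over all member probe sets, 11 of 22 were below the other 16 arrays on the +/- array and 14 of 22 on the -/- array. The dimmer probe sets of Igf2 (7.28) and Dlk1 (5.06) were not low on the +/- array. Whether these 2 embryos differed in quality of RNA or in biology was not tested, and values that they move are given below with and without them.

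**Figure D1:**
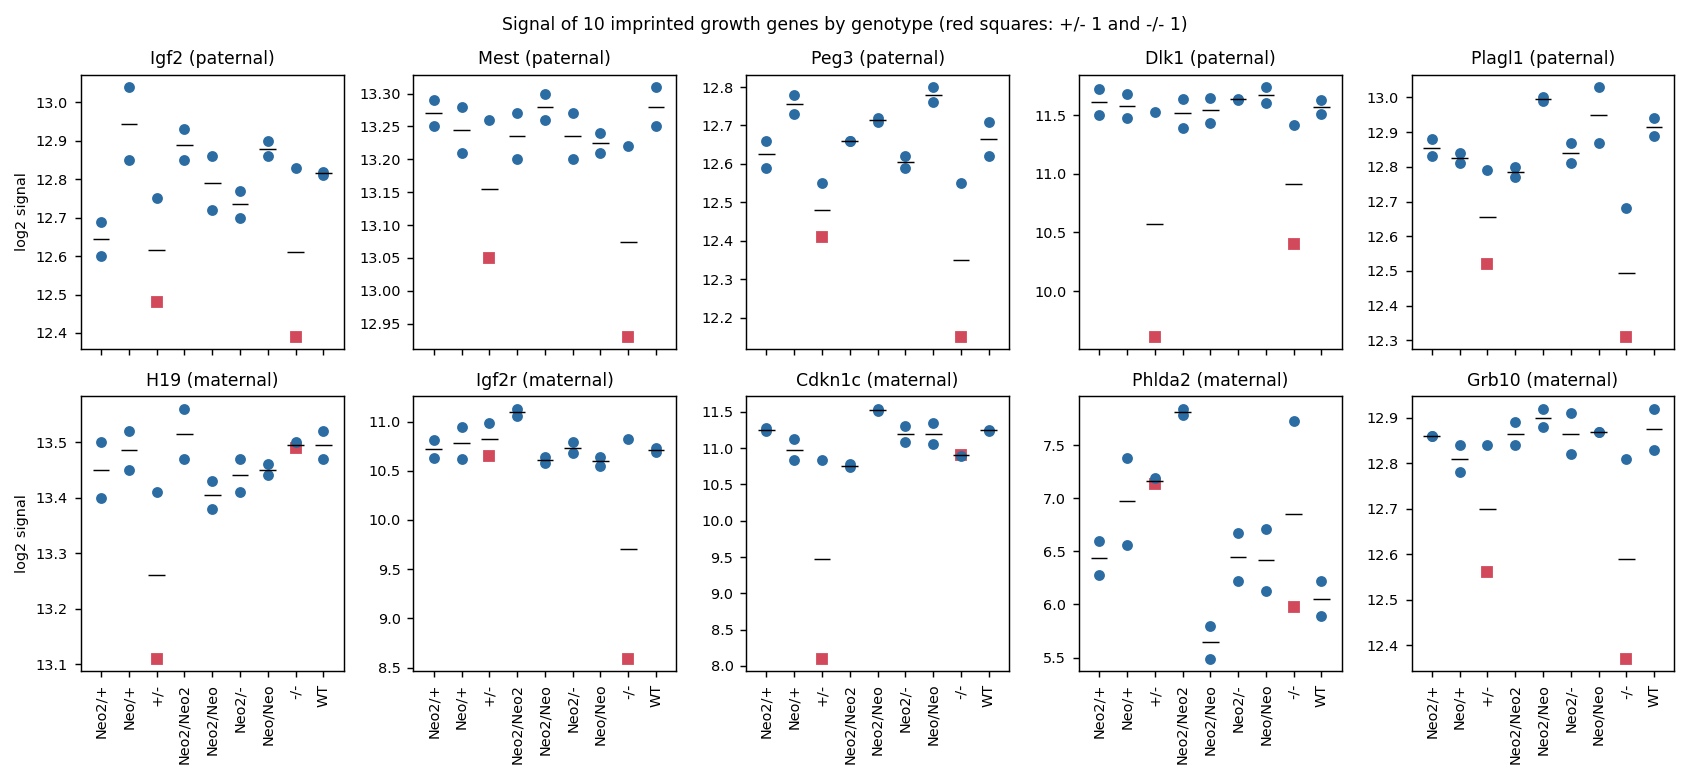
Log2 signal of the 10 genes, 1 panel a gene with its own vertical axis, for the 8 mutant genotypes and WT. Each point is 1 embryo, each line is the mean of the pair, and the red squares are replicate 1 of +/- and of -/-, which lie low for most genes. For Phlda2 they lie at 7.13 (+/-) and 5.98 (-/-), and the Neo2/Neo2 embryos at 7.78 and 7.84.

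**Figure D2:**
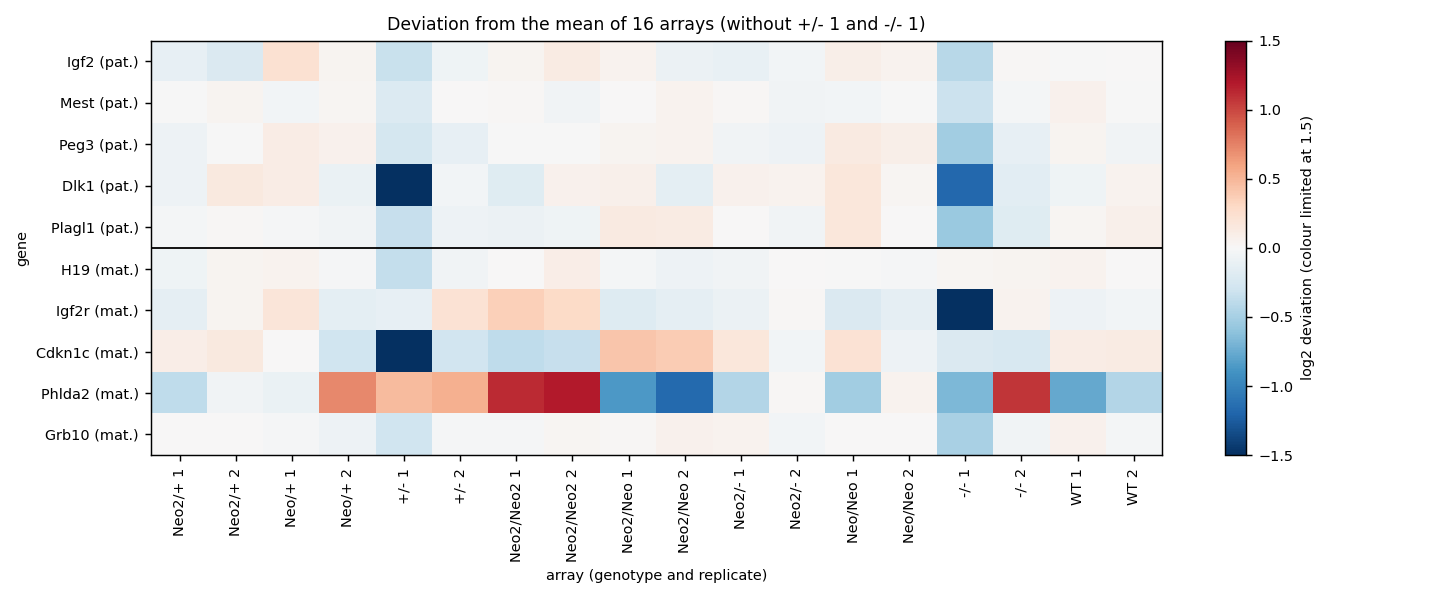
Deviation of each gene from its mean over 16 arrays, in log2 units, for all 18 arrays with the mutant arrays left of WT, and paternally expressed genes above the line. The columns of replicate 1 of +/- and of -/- are low, and the Phlda2 row holds the widest spread of the other arrays.

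By the brightest probe set of each gene, most of the 10 genes spanned less than the median gene over the other 16 arrays. The range from the lowest to the highest array was 0.11 log2 units for Mest, 0.14 for Grb10 and 0.18 for H19, against a median of 0.47 for all genes. Mest, a hydrolase-like gene of mesoderm, had a range at percentile 0.2 of all genes. Peg3, a zinc finger gene, had a range of 0.25, and Dlk1, a non-canonical Notch ligand, and Plagl1 0.35 each. Igf2 had 0.44, Igf2r 0.58, Cdkn1c 0.80 and Phlda2 2.35. The Phlda2 range lay at percentile 99.6 of all genes. The brightest probe sets of Igf2, H19, Mest, Peg3, Plagl1 and Grb10 had mean signals above percentile 99 of all probe sets, close to the top of the scale. Dimmer probe sets of Grb10 (1.63 and 1.13), Plagl1 (1.20 and 0.66), Igf2 (0.80) and Dlk1 (0.68) ranged more widely over these 16 arrays. For these genes the narrower range describes a single probe set and not the gene. Mest and H19 were each read by a single probe set, so this could not be checked for them. Phlda2 and Cdkn1c were also each read by a single probe set, so all their values here rest on that probe set. Of the 4 dimmer probe sets of Peg3, those at percentiles 98.5 and 96.9 of signal ranged over 0.23 and 0.39. Those at percentiles 3.2 and 2.8, at the dim end, ranged over 0.45 and 0.61.

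Igf2 had 13.04 and 12.85 log2 units in Neo/+ and 12.69 and 12.60 in Neo2/+ embryos, against 12.81 and 12.82 in WT embryos. Its second, dimmer probe set had 6.72 and 7.22 in Neo/+ embryos, against 6.58 and 7.37 in WT embryos, so only the bright one placed Neo/+ above WT. H19 had 13.47 and 13.56 in Neo2/Neo2 and 13.43 and 13.38 in Neo2/Neo embryos, against 13.52 and 13.47 in WT embryos. The H19 pairs of these genotypes overlapped WT or lay just below it. By its brightest probe set Plagl1 had 13.00 and 12.99 in Neo2/Neo and 12.77 and 12.80 in Neo2/Neo2 embryos. WT embryos had 12.89 and 12.94, so by this probe set those 2 genotypes lay on opposite sides of WT. Its dimmer probe sets did not repeat this. In the brighter of these Neo2/Neo (8.49 and 8.43) was again above WT, but Neo2/Neo2 (8.04 and 8.02) lay within the WT pair. In the other, Neo2/Neo2 (8.11 and 7.93) lay above WT (7.22 and 7.92), and Neo2/Neo (7.88 and 7.81) within the WT pair. Peg3 had 12.80 and 12.76 in Neo/Neo embryos, above both WT embryos at 12.71 and 12.62. Dlk1 had 11.74 and 11.60 in Neo/Neo embryos, against 11.51 and 11.63 in WT embryos, which overlap.

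Phlda2 had 7.78 and 7.84 log2 units in Neo2/Neo2 embryos, against 5.89 and 6.22 in WT embryos. Both Neo2/Neo2 embryos lay above both WT embryos and above the other 16 arrays. The mean difference was 1.75, with a limma SE of 0.43, which is 3.37 times the WT level. It was not called, with a limma adjusted p of 0.191 over 45037 probe sets, and 0 of the 22 probe sets were called while 0.00222% of all probe sets were. The 2 arrays that stood apart do not enter the difference of 1.75. Without them its limma adjusted p was 0.0244, and 1 of the 22 probe sets was called against 2.02% of all. Over 27 alternatives the difference lay between 1.59 and 1.92, higher in Neo2/Neo2 in all 27, and it was called in 4. Most of the 27 leave the Neo2/Neo2 and WT values unchanged, so they could alter only its p-value and not its direction. The Neo2/Neo2 pair and the Neo/Neo pair were male and the WT pair female, which holds for every gene compared between these pairs. With sex as a covariate the Phlda2 difference between Neo2/Neo2 and WT was 1.81 with a limma adjusted p of 0.731. The fitted male minus female difference of Phlda2, adjusted for genotype, was -0.06 (limma adjusted p 0.993). The unadjusted means ran the other way, with 6.77 in males and 6.51 in females over all genotypes.

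In the other genotypes Phlda2 had 7.13 and 7.19 in +/- embryos (difference 1.11, limma adjusted p 0.415) and 6.56 and 7.38 in Neo/+ embryos (0.92, limma adjusted p 0.686). The -/- embryos gave 5.98 and 7.73, so the pair spanned most of the range of the series (0.80, limma adjusted p 0.415). Without -/- replicate 1 and +/- replicate 1 the difference from WT was 1.67 in -/- (limma adjusted p 0.0827), resting on 1 -/- embryo, and 1.13 in +/- (limma adjusted p 0.398). The Neo2/Neo embryos had 5.80 and 5.49 (-0.41, limma adjusted p 0.957), below both WT embryos. Neo2/+ had 6.28 and 6.60, Neo2/- 6.22 and 6.67 and Neo/Neo 6.13 and 6.71, pairs that reached down to or close to the higher WT embryo. By mean the order was Neo2/Neo2, +/-, Neo/+, -/-, Neo2/-, Neo2/+, Neo/Neo, WT and Neo2/Neo. The step of 0.65 from Neo2/Neo2 to +/- exceeded the within-genotype SD of 0.50, and the other 7 steps, up to 0.41, did not. Against the smaller SD of 0.33 of the 7 genotypes without a deviating array, the steps from -/- to Neo2/-, from Neo/Neo to WT and from WT to Neo2/Neo exceeded it as well. The F-test over all 9 genotypes gave an F of 4.34 and a limma adjusted p of 0.23, with 0 of the 22 probe sets called against 0.275% of all. Without the 2 arrays the F was 12.56 and the limma adjusted p 0.0211, with 2.77% of all probe sets called and Phlda2 the member among them.

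Cdkn1c had 10.74 and 10.78 log2 units in Neo2/Neo2 embryos, against 11.24 and 11.25 in WT embryos, a difference of -0.49 with a limma adjusted p of 0.814, and 0.0611 without the 2 arrays. Both Neo2/Neo2 embryos lay below both WT embryos. It had 11.54 and 11.51 in Neo2/Neo embryos, above both WT embryos. In +/- embryos it had 8.10 and 10.84, and the mean difference of -1.78 from WT (limma adjusted p 0.39) was -0.41 without replicate 1. None of the 22 probe sets was called in +/- against WT, where 0% of all probe sets were. An unadjusted limma p under 0.05 was held by 7 of the 22, a larger share than the 11.7% of all probe sets. In -/- against WT 9 of the 22 held one, against 15.1% of all. These are the genotypes of the 2 arrays that stood apart.

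Igf2r had 11.13 and 11.06 in Neo2/Neo2 embryos, against 10.69 and 10.73 in WT embryos, a difference of 0.38 (limma adjusted p 0.825, and 0.0891 without the 2 arrays). In -/- embryos it had 8.59 and 10.82, with a mean of 9.71 against 10.71 in WT embryos (limma adjusted p 0.329), and the difference was 0.11 without the 2 arrays. The second Igf2r probe set did not turn, with -0.72 in -/- against WT (limma adjusted p 0.146) and -0.33 without the 2 arrays (limma adjusted p 0.25). Plagl1 was -0.42, Peg3 -0.32 and Grb10 -0.29 in -/- against WT, none of them called, with 0 of the 22 probe sets called against 0.0311% of all. These differences were -0.24 for Plagl1, -0.12 for Peg3 and -0.07 for Grb10 without the 2 arrays. A regression on the Tbx1 signal gave a slope of 0.45 for Igf2r (limma adjusted p 0.553) and called 0 of the 22 probe sets, as 0% of all. The slope was 0.13 without -/- replicate 1 alone and 0.15 without the 2 arrays (limma adjusted p 0.909).

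The remaining comparisons with WT also called 0 of the 22 probe sets, while 0% of all probe sets were called in Neo2/+, 0.0311% in Neo/+, 0.00222% in both Neo2/- and Neo2/Neo, and 0.0822% in Neo/Neo. Without the 2 arrays the share was 0% in Neo2/+, 0.151% in Neo/+, 0.00444% in Neo2/-, 0.0511% in Neo2/Neo and 0.302% in Neo/Neo, again with 0 of the 22 called. The same fit gave 0.144% in -/- and 0.00222% in +/-, with 0 of the 22 called in either. Embryos with 0 against 1 wild-type allele gave 0 calls among the 22, as 0% of all. Between males and females 0 of the 22 were called, against 0.0377% of all. Grb10 differed between its probe sets: 2 dimmer ones were -0.90 (limma adjusted p 0.307) and -0.71 (limma adjusted p 0.213) in Neo2/Neo2 against WT, while the brightest was -0.01. In both, the low value came from Neo2/Neo2 replicate 2, with 9.20 and 7.80.

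Paternally and maternally expressed genes were set side by side. In -/- against WT the 5 paternally expressed genes were all lower, with a median of -0.32, and 4 of the 5 maternally expressed genes were lower, with a median of -0.29, against a median of 0.02 for all genes. Over 16 arrays the medians were -0.12 for 4 lower of 5 and 0.00 for 2 lower of 5. In +/- against WT the medians were -0.20 for the paternally expressed genes and -0.18 for the maternally expressed genes, and -0.06 and -0.04 without the 2 arrays. In Neo2/Neo2 against WT they were -0.04 and 0.02, with the maternally expressed genes between -0.49 (Cdkn1c) and 1.75 (Phlda2). The genotypes share the WT arrays, so these differences are not independent of one another.

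Over all 18 arrays, 17 of the 45 pairs of genes were correlated at a permutation p adjusted over the 45 pairs under 0.05, all positively, with 10 of 10 pairs of paternally expressed genes among them. With 16 arrays 5 pairs passed and 0 were shared with the 17. The median r was 0.60 over 18 arrays and 0.12 over 16. The sign of r changed from 18 to 16 arrays in 14 of the 45 pairs, 4 of them among the 17. Igf2 and Mest had r = 0.60 over 18 arrays (permutation p 0.013, adjusted 0.0344) and -0.58 over 16 (permutation p 0.0189, adjusted 0.0966). Mest and Grb10 had r = 0.93 over 18 arrays and 0.32 over 16, so by the brightest probe sets that relation rested on the 2 arrays. By the mean of all probe sets of a gene it did not: r was 0.61 over 18 arrays (permutation p 0.0163, adjusted 0.0889) with rho = 0.81 (adjusted 0.0027), and 0.62 without those 2 arrays.

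**Figure D3:**
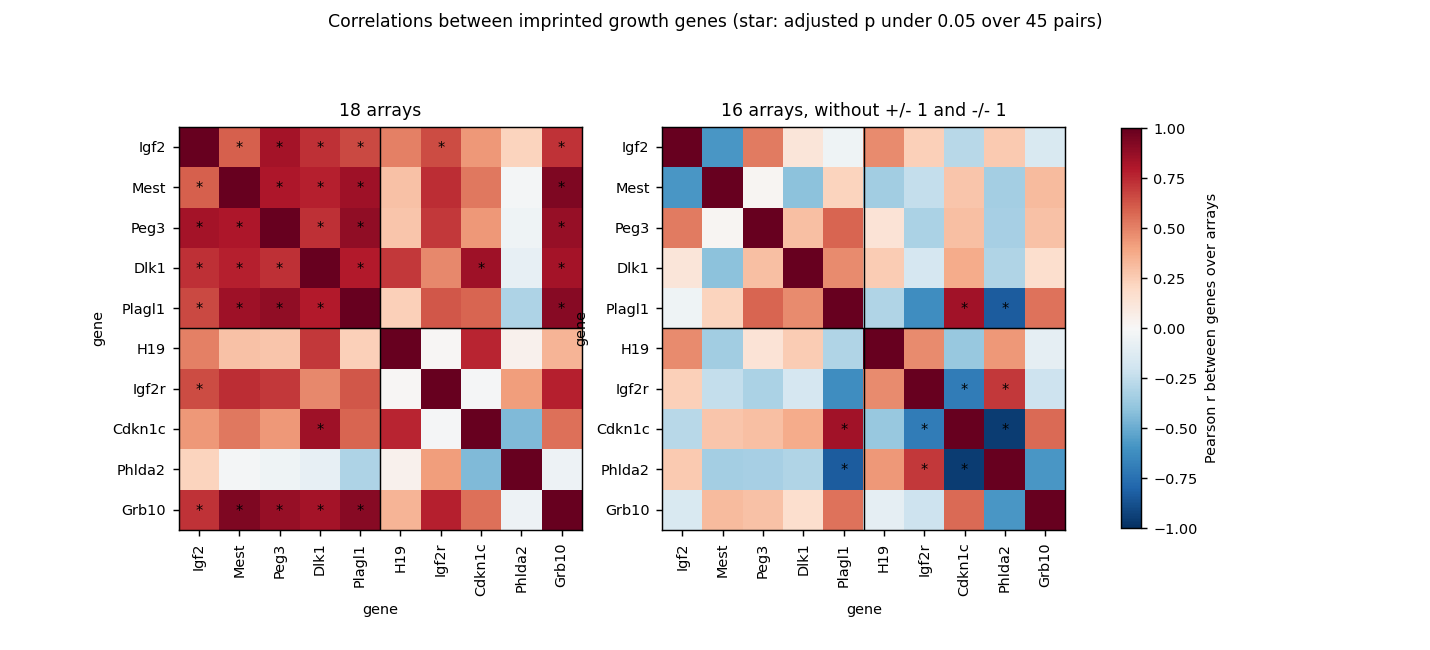
Pearson r between the 10 genes over 18 arrays (left) and over 16 arrays (right), with stars for pairs at an adjusted p under 0.05 and lines between paternally and maternally expressed genes. The positive block of the left panel, with a median r of 0.60, is not seen on the right, where the median is 0.12.

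Over the 16 arrays Cdkn1c and Phlda2 ran opposite to each other, with r = -0.95 and rho = -0.93 (permutation p 1e-05 for each, the smallest that 100000 permutations give, and 0.00045 adjusted for r). It was -0.93 without the 2 arrays farthest from the median, both Neo2/Neo2. It was -0.92 in the 7 female embryos and -0.97 in the 9 male embryos. Deviations from genotype means gave -0.83 over 7 genotypes with an exact sign-flip p of 0.25, and -0.07 over 9 genotypes with all arrays. Over all 18 arrays r was -0.44 (permutation p 0.0492, adjusted 0.0941) and rho -0.83 (adjusted 0.00157). By the brightest Plagl1 probe set, Cdkn1c and Plagl1 ran together over 16 arrays (r = 0.84, rho = 0.89, permutation p 6e-05, adjusted 0.00135). Phlda2 and Plagl1 ran opposite (r = -0.83, rho = -0.89, permutation p 0.00011, adjusted 0.00165). Over 18 arrays r was 0.58 (permutation p 0.0543, adjusted 0.0941) and -0.31 (permutation p 0.22, adjusted 0.275), with rho at 0.88 and -0.67. With the mean of all probe sets of a gene over 18 arrays r was only 0.21 and 0.13, and rho 0.39 and -0.11. Both relations with Plagl1 thus describe its brightest probe set and not the gene. Igf2r had r = -0.70 with Cdkn1c and 0.71 with Phlda2 over 16 arrays (permutation p 0.00244 and 0.00261, adjusted 0.0235 for each). Over 18 arrays these were -0.01 and 0.42 (permutation p 0.954 and 0.0631, adjusted 0.965 and 0.0946). Over 16 arrays 223 genes had an r above 0.9 with Phlda2 and 124 an r below -0.9, so Cdkn1c, 14th among the most opposite of 18193 genes, was 1 of many.

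**Figure D4:**
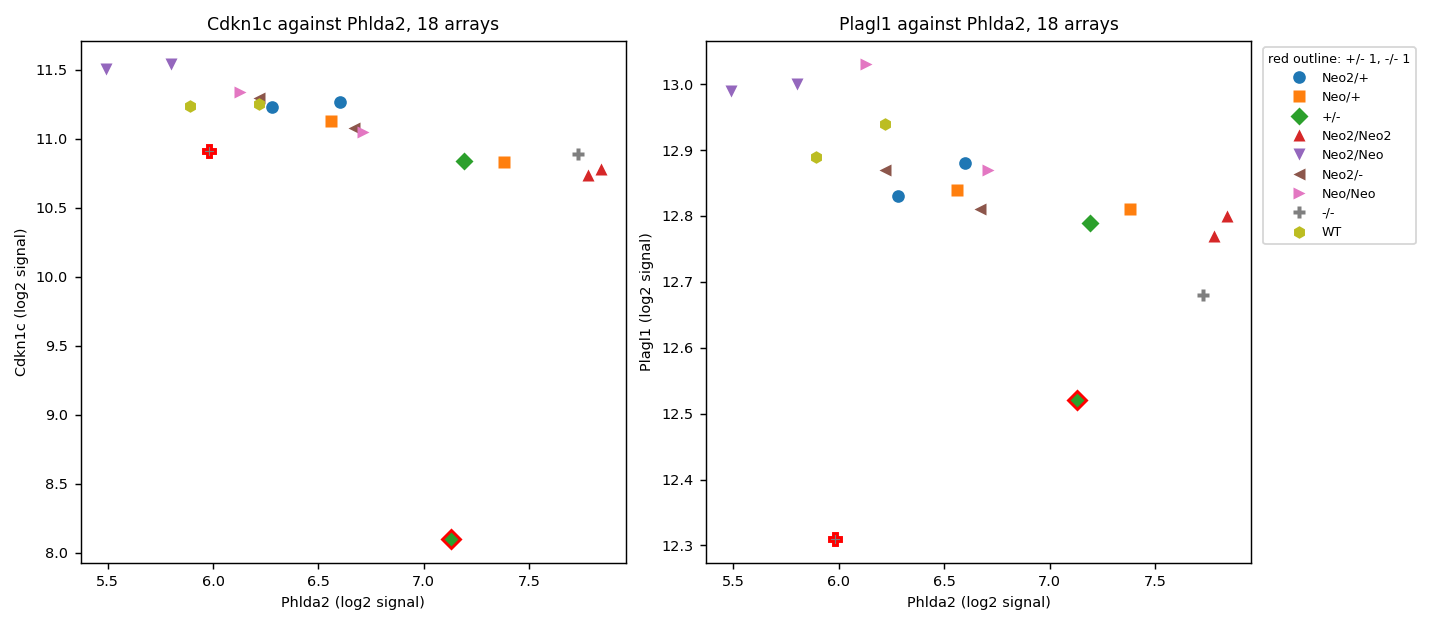
Cdkn1c (left) and Plagl1 (right) against Phlda2, in log2 units, 1 point an embryo, with symbols for the mutant genotypes and WT. Over the 16 arrays without a red outline r was -0.95 and -0.83, and the outlined +/- array lies lowest in the left panel and the outlined -/- array lowest in the right one.

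Hoxb1, a hindbrain patterning gene, and Tcfl5 were the most like Phlda2 over 18 arrays (r 0.965 and 0.963), and Kif5c and Rab11fip2 the most like Cdkn1c (r 0.986 and 0.985). Over 16 arrays, a setting added after the data were seen, Pawr and Ddx18 came first for Phlda2 (r 0.972 and 0.970), and Tle5 and Elavl3, a neuronal RNA-binding protein gene, for Cdkn1c (r 0.974 and 0.973). Hoxb1 had 8.22 and 8.38 in Neo2/Neo2 embryos, against 6.77 and 7.06 in WT embryos. Elavl3 had 7.24 and 7.33 in Neo2/Neo2 embryos, against 8.50 and 8.72 in WT embryos.

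Single markers of other cells ran with or opposite to Phlda2 over the 16 arrays. Afp, a yolk sac endoderm gene, had an r of -0.89 with it, with Neo2/Neo2 embryos at a mean of 7.99 and Neo2/Neo embryos at 11.37, against 10.07 in WT embryos. The summed signal of the 8 measured yolk sac markers was 8.96 and 9.86 in Neo2/Neo2 and 11.76 and 11.79 in Neo2/Neo embryos, against 10.36 and 10.83 in WT embryos. This sum follows its brightest gene, Afp, so it adds little to the Afp values. The median difference of the 8 from WT was smaller, -0.12 in Neo2/Neo2 and 0.35 in Neo2/Neo. The r of these 8 with Phlda2 ran from -0.89 to 0.46, with 5 negative and 3 positive. All 5 measured markers of primitive red cells were negative, between -0.86 (Hba-x) and -0.62, and their summed signal was 15.69 and 15.51 in Neo2/Neo2 embryos, against 15.90 and 15.84 in WT embryos. The heart markers ran from -0.11 to 0.90 (Myl7) with 3 of 4 positive, and their summed signal was 12.43 and 12.47 in Neo2/Neo2 embryos, against 11.99 and 11.96 in WT embryos. The neural tube markers were split, 2 negative and 2 positive, between -0.92 (Nes, a neural progenitor gene) and 0.38, and the somite markers likewise between -0.77 and 0.72. The decidua and uterus markers ran from -0.51 to 0.70. Of 8 trophoblast and placenta markers 3 were measured, Plac1 with an r of 0.89 and Tpbpa and Psg21 at mean signals of 3.23 and 3.76, which lie at the dim end. None of the marker lists held a call with all arrays in the 11 comparisons, from 4 of 4 measured genes each for heart, neural tube and somites, 5 of 6 for primitive red cells, 8 of 9 for yolk sac endoderm and 6 of 6 for decidua and uterus. Without the 2 arrays, a setting in which Phlda2 was called, 4 calls fell to primitive red cells and 1 to somites. Calls were more common there over all probe sets too, at 2.02% in Neo2/Neo2 against WT and 2.77% in the F-test. Alas2, of heme synthesis in red cells, fell by 1.00 in Neo2/Neo2 against WT (limma adjusted p 0.0396). The F-test called Alas2 (0.0314), Hba-x (0.0418), Klf1, a red cell transcription factor gene (0.0298), and Meox1 of the somites (0.0126). The part of these cell types in the Phlda2 result was not tested. In whole embryos fewer cells of a type and less RNA per cell cannot be told apart.

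Of the other lists, 22 of 25 maternally and 20 of 26 paternally expressed imprinted genes, 17 of 18 IGF pathway genes and 11 of 11 genes that maintain imprints were measured. None of them was called in any of the 11 comparisons with all arrays. Meg3, a maternally expressed noncoding RNA of the Dlk1 domain, had the smallest F-test p of its list (limma adjusted p 0.0714, and 0.0424 without the 2 arrays), with a mean of 11.25 in Neo2/Neo2, 11.08 in -/- and 11.95 in WT embryos. Sfmbt2 had a limma adjusted p of 0.0518 (0.0269 without the 2 arrays), with 4.38 in Neo/Neo, 4.39 in Neo2/Neo and 5.27 in WT embryos. Nnat, a paternally expressed gene of neural tissue, had 11.71 in Neo2/Neo2 and 12.56 in Neo2/Neo embryos, against 12.22 in WT embryos (limma adjusted p 0.131, and 0.0336 without the 2 arrays). Without the 2 arrays Meg3 fell by 0.70 (limma adjusted p 0.0296) and Nnat by 0.51 (0.0449) in Neo2/Neo2 against WT. Dnmt3b, a DNA methyltransferase gene, rose by 0.50 (0.0418) there, and Sfmbt2, with a dim mean of 4.93, fell by 0.90 in Neo/Neo (0.0334). Of all probe sets 2.02% and 0.302% were then called in these 2 comparisons. Both mutant pairs were male and the WT pair female, so within these pairs sex and genotype cannot be told apart. Igf1 of the IGF list was called in the F-test without the 2 arrays (limma adjusted p 0.0215), as 2.77% of all probe sets were. With all arrays the F-test gave adjusted p-values of 0.182 for Irs1 and 0.319 for Zfp445, the first of the IGF and imprint maintenance lists.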

How the data were processed

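Total RNA of 18 whole embryos went onto Affymetrix Mouse Genome 430 2.0 arrays as biotin-labelled cRNA (6 ug of RNA each), per the labels' protocols. The deposited values are log2 probe set signals. RMA and affy are the authors' tools per the submitters' processing notes, with no version stated there. The values were taken as deposited, without a filter. The annotation gave 1 symbol to 34945 probe sets, several to 932 and none to 9160. For 1 value a gene, the single-symbol probe set with the highest mean was used, except H19, whose only probe set also names Mir675.

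limma 3.58.1 in R 4.3.3 (lmFit and eBayes, two-sided, Benjamini-Hochberg over all probe sets, threshold 0.05) fitted 9 genotype means to all 18 arrays, leaving 9 residual degrees of freedom. Correlations over 45 pairs used 100000 permutations of the arrays, without regard to genotype (Python 3.11.15, numpy 2.4.6). Motifs and promoters were read with pandas 2.3.3. The scripts were tested on simulated data. The members, the gene lists (other imprinted genes, IGF pathway, maintenance of imprints, and markers of heart, neural tube, somites, primitive erythroid cells, yolk sac endoderm, trophoblast and decidua) and the rules were chosen with earlier results of these data known. Named are the 10 genes, Tbx1, up to 3 genes of each list by F-test p, and the 2 most like genes of a member. Igf1 and Klf1, named beside them, were chosen after their values were seen. The alternatives left out each array, left out +/- replicate 1 and -/- replicate 1 together, and changed the block, sex, centring, dim filter, trend, weights, arrays in the fit and probe sets of a gene. Embryo sex was called from the brightest Xist probe set alone (female above 7 log2 units). RMA values carry no detection call.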

Additional observations from a re-analysis of the deposited data

Results flagged for a closer look

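In 20 groups of embryos (10 genes, embryos with 0 or with 1 wild-type allele), 13 held a sample farther from the rest than Dixon's limit allows, where chance gives about 1 in 20. All 13 were low values of replicate 1 of -/- (7) or of replicate 1 of +/- (6). Among the 10 embryos with 0 alleles, -/- replicate 1 had 12.39 for Igf2, 8.59 for Igf2r, 12.93 for Mest, 12.15 for Peg3, 10.40 for Dlk1, 12.31 for Plagl1 and 12.37 for Grb10. Among the 6 embryos with 1 allele, +/- replicate 1 had 13.11 for H19, 13.05 for Mest, 9.61 for Dlk1, 8.10 for Cdkn1c, 12.52 for Plagl1 and 12.56 for Grb10. These values come from 2 arrays, so they are not 13 separate findings.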

How the results depend on the processing

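Phlda2 in Neo2/Neo2 against WT was called with only those 2 genotypes fitted (limma adjusted p 0.0115), without the 2 arrays together (0.0244) and without either -/- array, and otherwise not, at up to 0.842. The F-test called 1 member without the 2 arrays and 1 with array weights. Leaving out 1 array at a time, member calls lay between 0 and 3 in +/- (3 without replicate 2), 0 and 1 in Neo2/Neo2, 0 and 9 in -/- (9 without replicate 2) and 0 and 5 in the F-test. In those highest cases the lone low embryo is assumed to vary like the others. Calls over all probe sets then ranged 0 to 21 in Neo2/+ and Neo2/Neo, 0 to 36 in Neo/+, 0 to 5066 in +/-, 0 to 45 in Neo2/Neo2, 0 to 17 in Neo2/-, 0 to 66 in Neo/Neo, 0 to 5121 in -/-, 21 to 4777 in the F-test and 0 to 2 in the regression. The main counts were 0 in Neo2/+ and +/-, 14 in Neo/+ and -/-, 1 in Neo2/Neo2, Neo2/Neo and Neo2/-, 37 in Neo/Neo and 124 in the F-test. Without the 2 arrays they were 68 in Neo/+, 1 in +/-, 911 in Neo2/Neo2 (1 member), 23 in Neo2/Neo, 2 in Neo2/-, 136 in Neo/Neo, 65 in -/- and 1247 in the F-test (1 member). The replicate numbers did not pair the embryos: over 36 pairs of genotypes the correlation of replicate differences was -0.26 to 0.19. With the replicate number as a block, calls were 2 in Neo2/Neo2, 0 in Neo2/- and 8 in -/-. With sex they were 1 in Neo2/+, 8 in Neo/+, 0 in Neo2/-, 17 in Neo/Neo, 6 in -/- and 57 in the F-test. The dim filter gave 7 in Neo2/Neo2 and 7 in -/-, and the trend 0 in Neo2/-. Array weights gave 55 in Neo/+, 12 in Neo2/Neo2, 11 in Neo2/Neo, 119 in Neo/Neo, 1 in -/- and 1335 in the F-test. With the genotype and WT only they were 32 in Neo/+, 254 in Neo2/Neo2 (1 member), 0 in Neo2/-, 82 in Neo/Neo and 0 in -/-. The mean of all probe sets of a gene gave 0 in Neo2/Neo2, Neo2/Neo and Neo2/-, 22 in Neo/Neo, 5 in -/- and 50 in the F-test. Correlated pairs numbered 17 over 18 arrays, 5 without the 2 arrays, 1 with the mean of probe sets and 0 in deviations from genotype means. The last count says little. The exact sign-flip test over 9 genotypes gives no p below 0.00391, too large for a lone pair to pass the adjustment over 45 pairs. From 18 arrays to 16, r changed sign in 14 of the 45 pairs. Of the relations followed through every alternative, the sign turned for the brightest Igf2r probe set in -/- (0.11 without replicate 1, range -2.11 to 0.11), for Phlda2 with Plagl1 (r 0.13 with the mean of probe sets, 0.52 in deviations) and for Igf2 with H19 (-0.11 with the mean of probe sets). Class medians without the 2 arrays were -0.06 and -0.04 in +/- and -0.12 and 0.00 in -/- for the paternally and the maternally expressed genes. The cause of these shifts was not tested.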
